A study of Mus musculus with 8 samples.

Results

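Splicing factor genes of the hnRNP, SR, Luc7l, Snrp and SF3 families were followed in mouse embryonic fibroblasts (MEFs) through 90 of the 25697 probes on an Illumina bead array. A probe was taken if its gene symbol began with Hnrnp, Hnrp, Srsf, Sfrs, Luc7l, Snrp or Sf3 (a rule by name alone). These probes belong to 49 of the 16593 named genes. They comprise 39 hnRNP, 16 SR, 8 Luc7l, 10 Sm core, 6 other Snrp and 11 SF3 probes. A further hnRNP gene with 2 probes was not analysed here.

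The arrays formed 4 groups. KI polysomal and WT polysomal arrays carried heavy polysomal RNA, which is the pool of gradient fractions whose mRNAs held more than 3 ribosomes. KI total and WT total arrays carried total cytoplasmic RNA. KI cells came from EIF4E-KI mice, whose eIF4E cannot be phosphorylated, and WT cells from wild-type mice. eIF4E holds the 5′ cap of mRNAs at the start of translation, and the study asked how this phosphorylation bears on the mRNAs found in polysomes. Both lines were derived at day 14.5 of gestation, were immortalised by passage and grew in DMEM with 10% serum. RNA was isolated in 2 independent experiments on 1 pair of lines, so each group has 2 arrays, and genotype and line cannot be told apart. For each array 250 ng of RNA was labelled, so a polysomal minus total difference is relative to the other mRNAs of the same sample. In such bulk RNA, fewer cells of a type and less RNA per cell cannot be told apart.

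Splicing removes introns from pre-mRNA in the nucleus. U1 and U2 snRNPs, which contain the Sm ring, mark the 5′ splice site and the branch point, and the SF3a and SF3b complexes are parts of the U2 snRNP. SR proteins bind exonic enhancers and favour inclusion of nearby exons, hnRNPs coat nascent RNA and often oppose inclusion, and Luc7-like proteins act with U1 at the 5′ splice site. Many SR and hnRNP genes regulate their own mRNA through alternative exons that lead to its decay.

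Values are the deposited signals, taken as log2. The values reached 15.8, but the median of each array was only 7.69 to 7.73, close to the lowest values, and differences of probes near that floor are compressed. A probe entered the tests when its 8 values averaged over 7.73, the median of these averages for all probes. This kept 12094 named probes, among them 71 of the 90 splicing factor probes, from 42 genes. The 7 genes with no kept probe were Hnrnpd, Hnrnph2, Hnrnpr, Sf3b1, Snrpb2, Snrpe and Srsf12. Their probes read near the floor on these arrays, so no level is given for them. A probe was called at an adjusted p below 0.05 (limma, Benjamini-Hochberg over the 12094 probes), and errors beside differences are limma standard errors.

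Over all probes, the 2 KI polysomal arrays correlated at 0.987 and the 2 WT polysomal arrays at 0.991. The total arrays were less alike within a line, at 0.975 in KI and 0.970 in WT. Replicate 2 of WT total RNA correlated at 0.982 with replicate 2 of KI total RNA, above its 0.970 with the other WT total array. Over the kept splicing factor probes alone the order was reversed, at 0.980 and 0.987. Fibroblast markers were kept for 8 of 9 measured genes, whereas 0 of 3 macrophage and blood markers and 1 of 5 endothelial markers were kept. Epithelial markers were kept for 2 of 4 measured genes and neural markers for 4 of 5. Smooth muscle markers, 3 of 5 kept with Cnn1 and Myh11 at the floor, summed to 53.6 to 55.2 on KI arrays and 46.6 to 51.5 on WT arrays. Their part in the differences between lines was not tested. Eif4e itself read 7.76 and 7.76 in KI polysomal RNA, 8.66 and 8.44 in WT polysomal RNA, and between 7.67 and 7.82 on the 4 total arrays. The knock-in changes the protein and not the presence of the gene, so this level does not check the labels.

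The first comparison set heavy polysomal against total RNA, over both lines. Splicing factor mRNAs differed widely in it, by family. Of the 71 kept probes, 42 were called higher in polysomal RNA and 8 lower, from 24 and 8 genes. Among all kept probes 29.2% were called higher and 24.4% lower. The median difference was 0.81 log2 for the splicing factor probes, beside -0.00 for all kept probes. The hnRNP, SR and Luc7l families lay on the higher side. In the hnRNP family 20 of 27 probes rose and 0 fell, in the SR family 10 of 15 rose and 1 fell, and in the Luc7l family 6 of 7 rose and 0 fell. Median differences were 1.17 for hnRNP, 0.97 for SR and 0.82 for Luc7l probes. The snRNP and SF3 families were mixed. Among Sm core probes 3 of 8 rose and 3 fell, among other Snrp probes 1 of 5 rose and 1 fell, and among SF3 probes 2 of 9 rose and 3 fell. Their medians were -0.20, -0.17 and -0.17.

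**Figure D1:**
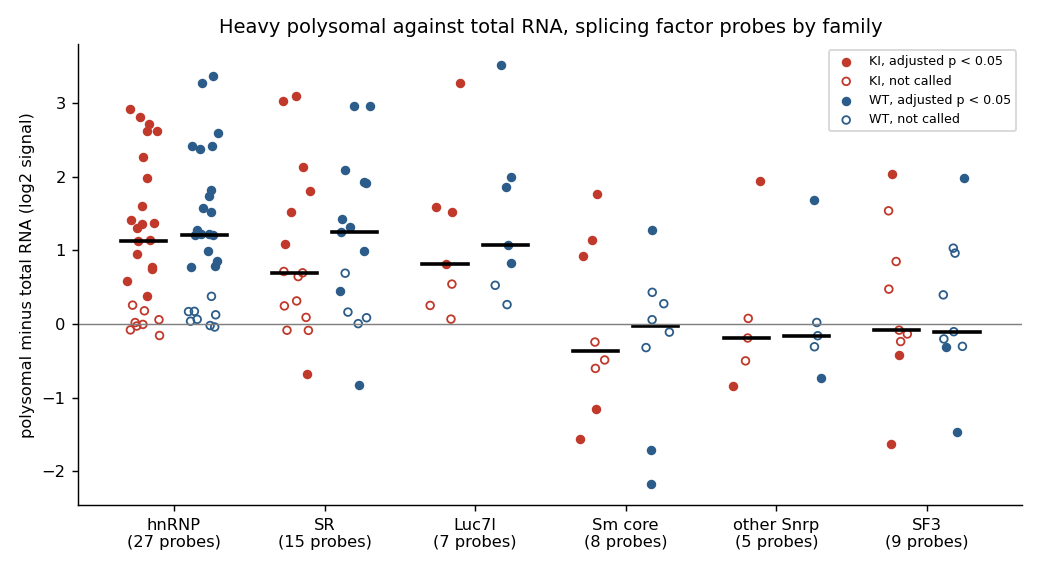
Polysomal minus total difference (log2 signal, y axis) of each of the 71 kept splicing factor probes, by family, in KI (red) and WT (blue). Filled points have an adjusted p below 0.05 in that line and black bars are family medians. No hnRNP point is filled below 0, while the Sm core and SF3 families spread from below -1 to above 1.

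In KI 34 of the 71 probes were called higher and 6 lower, where all kept probes gave 21% and 16%. In WT 37 were called higher and 6 lower, where all kept probes gave 20.7% and 16.8%. A total of 32 probes were called higher in both lines, 5 were called lower in both, and 0 were called in opposite directions. Of these, 19 were hnRNP probes called higher in both lines. How many of all kept probes were called in both lines was not counted. Leaving out 1 array at a time left 43 of the 50 calls over both lines in place each time. The 7 calls that were lost in some case were probes of Snrpb, Sf3b3, Hnrnpu, Srsf2, Srsf3, Sf3b6 and Luc7l2. Within a single line the calls rest more on each array. In WT, 28 of 43 calls remained without replicate 2 of the polysomal RNA.

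Among the SR proteins, Srsf1, the founding member of the family and a general activator of exons, had the largest difference. Its brightest probe read 13.06 and 12.93 in KI polysomal RNA, 13.35 and 13.27 in WT polysomal RNA, 9.81 and 9.98 in KI total RNA, and 10.52 and 10.18 in WT total RNA. All 4 polysomal arrays lay far above all 4 total arrays. The difference was 3.03 ± 0.10, or 8.17-fold (adjusted p = 0.000102), and the other Srsf1 probe gave 2.99 ± 0.11. Srsf5 rose by 2.11 ± 0.18 (adjusted p = 0.00049). It had 11.49 and 11.12 in KI polysomal RNA and 11.54 and 11.32 in WT polysomal RNA, against 9.45 and 8.90 in KI total RNA and 9.55 and 9.13 in WT total RNA. Here too the polysomal and total arrays did not overlap. Srsf6, which like Srsf5 acts on exonic enhancers, rose by 1.73 ± 0.15 (adjusted p = 0.000556). Its polysomal arrays read 10.96 and 11.15 in KI and 11.61 and 11.79 in WT, and its total arrays 9.23 and 9.84 in KI and 9.66 and 9.87 in WT.

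The remaining SR genes ranged down to a fall. Srsf10, an SR protein that represses splicing when dephosphorylated, rose by 1.25 ± 0.06 at its brightest probe (adjusted p = 0.000151). Polysomal values were 8.79 and 8.93 in KI and 9.33 and 9.22 in WT, whereas total values were near the floor, 7.76 and 7.79 in KI and 7.89 and 7.82 in WT. Srsf3, a small SR protein also known for mRNA export, rose by 0.97 ± 0.25 and 1.01 ± 0.23 at its 2 probes (adjusted p = 0.0199 and 0.012). The first of these calls was lost without replicate 2 of KI polysomal RNA (adjusted p = 0.0633), and also without either WT polysomal array or without replicate 2 of WT total RNA. Srsf2, also called SC35, differed by 0.82 ± 0.20 at its brightest probe (adjusted p = 0.017), a call lost when either WT polysomal array, replicate 2 of KI polysomal RNA or replicate 2 of WT total RNA was left out (highest adjusted p = 0.0575). A second Srsf2 probe of like brightness gave 0.50 and a dim one gave -0.04, and neither was called. Srsf4 was not called, and its 8 arrays ran from 9.53 to 10.16 with polysomal arrays inside the range of total arrays. Srsf9 was the only SR gene with a probe that fell, by 0.75 ± 0.13 on the log2 scale (adjusted p = 0.0046). It read 11.89 and 11.60 in KI polysomal RNA and 11.46 and 11.85 in WT polysomal RNA, against 12.44 and 12.41 in KI total RNA and 12.64 and 12.32 in WT total RNA, with no overlap between polysomal and total arrays.

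Of the 14 hnRNP genes with a kept probe, 10 had a probe that rose and 0 a probe that fell. Among the 10, Hnrnpu rose by only 0.21 ± 0.06 (adjusted p = 0.0241). Its means were 7.98 in KI and 7.86 in WT polysomal RNA, and 7.72 in KI and 7.68 in WT total RNA. Both total means were below the brightness filter, so the probe was kept through its polysomal values. The direction of the Hnrnpu difference is thus partly fixed by the filter, and its call was among those lost with an array left out. Hnrnph1, whose protein binds runs of G, had the largest difference of the family, 3.14 ± 0.11 or 8.82-fold at its brightest probe (adjusted p = 0.000102). That probe read 11.29 and 11.19 in KI polysomal RNA, 12.15 and 12.23 in WT polysomal RNA, 8.36 and 8.29 in KI total RNA, and 9.04 and 8.61 in WT total RNA. Polysomal and total arrays were well apart in each line. Its relative Hnrnpf rose by 1.26 ± 0.10 (adjusted p = 0.000426), with 9.89 and 9.75 in KI polysomal RNA and 9.75 and 9.84 in WT polysomal RNA against 8.71 and 8.33 in KI total RNA and 8.56 and 8.59 in WT total RNA. Hnrnpa2b1, a core hnRNP that also takes part in mRNA transport, rose by 2.61 ± 0.13 (adjusted p = 0.000157). Its values were 11.95 and 11.65 in KI polysomal RNA, 12.01 and 11.66 in WT polysomal RNA, 9.16 and 8.82 in KI total RNA, and 9.47 and 9.38 in WT total RNA. For Hnrnph1, Hnrnpf and Hnrnpa2b1 no polysomal array fell within the range of the total arrays.

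Hnrnpm, a regulator of alternative exons, rose at all 3 of its probes, by 1.90 ± 0.11, 2.50 ± 0.14 and 2.52 ± 0.13. Hnrnpk, which binds C-rich RNA, rose by 1.67 ± 0.22 at its brightest probe (adjusted p = 0.00189), and Hnrnpc, which packs nascent transcripts by binding U tracts, by 1.45 ± 0.24 (adjusted p = 0.00444). Hnrnpab gave 14.55 and 14.67 in KI polysomal RNA and 14.72 and 14.65 in WT polysomal RNA, near the top of the range, against 13.42 and 12.96 in KI total RNA and 13.69 and 13.13 in WT total RNA. The groups did not overlap and the difference was 1.35 ± 0.16 (adjusted p = 0.00138). Hnrnpdl rose by 1.35 ± 0.07 (adjusted p = 0.000166) and Hnrnpll, which regulates CD45 exons in T cells, by 1.28 ± 0.07 (adjusted p = 0.000189). Hnrnpl, the paralog of Hnrnpll that binds CA repeats, was not called. It read 13.02 and 12.93 in KI polysomal RNA, 12.43 and 12.92 in WT polysomal RNA, 12.90 and 12.69 in KI total RNA and 12.29 and 12.32 in WT total RNA, so that the ranges overlapped. The other hnRNP probes that were not called belonged to Hnrnpa3, Hnrnph3, Hnrnpk and Hnrnpul1 and read between 7.67 and 8.21 on the 8 arrays, close to the floor.

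**Figure D2:**
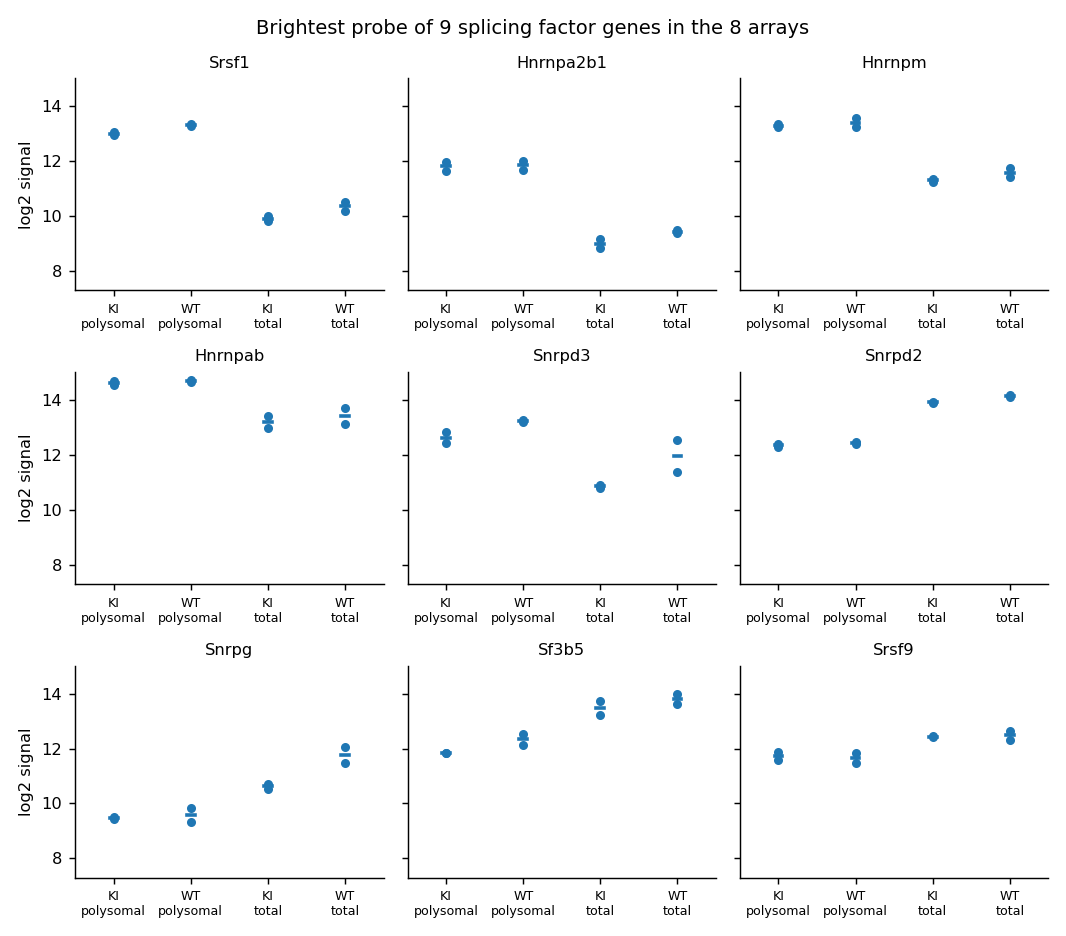
Log2 signal (y axis) of the brightest probe of 9 splicing factor genes on the 8 arrays. Points are arrays, bars are means of 2 arrays, and groups run KI polysomal, WT polysomal, KI total, WT total. Srsf1, Hnrnpa2b1, Hnrnpm, Hnrnpab and Snrpd3 are higher in polysomal RNA, whereas Snrpd2, Snrpg, Sf3b5 and Srsf9 are lower.

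The Luc7l family, relatives of a yeast U1 snRNP protein, held the largest difference of all 71 probes. Luc7l3 read 11.79 and 12.20 in KI polysomal RNA, 12.34 and 12.71 in WT polysomal RNA, 8.51 and 8.94 in KI total RNA, and 9.0 and 9.01 in WT total RNA at its brightest probe. The polysomal arrays were the 4 highest by a wide margin. The difference was 3.39 ± 0.15, or 10.5-fold (adjusted p = 0.00013). Luc7l2 and Luc7l rose less, by 0.82 ± 0.11 (adjusted p = 0.00226) and 0.81 ± 0.15 (adjusted p = 0.00616) at their brightest probes.

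Sm core genes, whose products form a ring of 7 proteins on the snRNA, went in both directions. Snrpd3 rose by 1.52 ± 0.25 (adjusted p = 0.00435). It had 12.42 and 12.81 in KI polysomal RNA, 13.20 and 13.25 in WT polysomal RNA, 10.90 and 10.81 in KI total RNA, and 12.52 and 11.38 in WT total RNA. Replicate 1 of WT total RNA overlapped the KI polysomal values. Snrpd1 rose at both of its probes, by 0.79 ± 0.12 (adjusted p = 0.00314) and 0.60 ± 0.10 (adjusted p = 0.0044). Snrpd2, the partner of Snrpd1 within the ring, fell by 1.64 ± 0.06 on the log2 scale, or 3.11-fold (adjusted p = 0.000102). Its arrays read 12.30 and 12.40 in KI polysomal RNA and 12.46 and 12.40 in WT polysomal RNA, against 13.89 and 13.93 in KI total RNA and 14.17 and 14.10 in WT total RNA. The gap between polysomal and total arrays far exceeded the spread within groups. Snrpg fell by 1.67 ± 0.18 on the log2 scale (adjusted p = 0.000968), with 9.42 and 9.52 in KI polysomal RNA, 9.33 and 9.85 in WT polysomal RNA, 10.73 and 10.54 in KI total RNA, and 12.07 and 11.47 in WT total RNA. Snrpb, whose products B and B′ are members of the ring, was not called at its brightest probe (-0.09 ± 0.15, adjusted p = 0.65). Its 8 arrays read between 13.33 and 14.00. The dimmer Snrpb probe was the third Sm core probe called lower, at -0.46 ± 0.14 (adjusted p = 0.0373), a call lost with any of 6 arrays left out (highest adjusted p = 0.103).

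Proteins of single snRNPs and of SF3 were as divided. Snrpc, the U1 protein that stabilises pairing with the 5′ splice site, fell by 0.78 ± 0.10 on the log2 scale (adjusted p = 0.00145). It had 8.70 and 8.85 in KI polysomal RNA and 9.24 and 9.13 in WT polysomal RNA, against 9.44 and 9.79 in KI total RNA and 9.93 and 9.91 in WT total RNA, without overlap. Snrpa1, a U2 protein, rose by 1.81 ± 0.28 (adjusted p = 0.00336). Its polysomal arrays lay between 12.01 and 12.09, and its total arrays read 10.58 and 9.67 in KI and 10.83 and 9.85 in WT. Both lines had the higher total value in replicate 1. Snrpa, a U1 protein, was not called at either probe.

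Within SF3a, Sf3a3 rose by 2.01 ± 0.17 (adjusted p = 0.000536), whereas Sf3a1 and Sf3a2 were not called. Sf3a3 read 12.32 and 12.46 in KI polysomal RNA, 12.62 and 12.68 in WT polysomal RNA, 10.46 and 10.25 in KI total RNA, and 11.05 and 10.28 in WT total RNA, and polysomal arrays were higher throughout. Within SF3b, Sf3b5, a small subunit, fell by 1.55 ± 0.16 on the log2 scale (adjusted p = 0.000965). Its values were 11.85 and 11.82 in KI polysomal RNA and 12.54 and 12.13 in WT polysomal RNA, below 13.22 and 13.72 in KI total RNA and 13.61 and 14.00 in WT total RNA. Sf3b6, the subunit that contacts the branch point, differed by -0.20 ± 0.06 (adjusted p = 0.0397), and the call was lost with any of 6 arrays left out (highest adjusted p = 0.129). Sf3b3, a scaffold of the complex, differed by 1.25 ± 0.40 (adjusted p = 0.0422), and replicate 2 of KI polysomal RNA, at 13.17, was 1.57 above replicate 1. Without that array the Sf3b3 difference was 0.86 (adjusted p = 0.07), and leaving out any of 6 others also lost the call.

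Promoters were searched for short motifs to see what these genes share beyond their names. RefSeq (GRCm38.p6) gave a promoter for 43 of the 49 genes, and the 250 bases before each listed start were searched on both strands. A gene counted if any of its starts had the motif. Numbers of starts were not compared between splicing factor genes and the others. CCGGAA, the core bound by ETS factors, was found in 21 of 43 splicing factor genes (48.8%), in 18.3% of array genes with a promoter, and in 25.4% of those with a kept probe. It was found in 6 of 7 SF3, 4 of 5 Sm core, 4 of 9 SR, 5 of 16 hnRNP, 2 of 4 other Snrp and 0 of 2 Luc7l genes. By the call of the brightest probe, it was present in 10 of 21 genes higher in polysomal RNA, 3 of 5 lower ones and 5 of 10 not called. CCAAT was found in 46.5% of the splicing factor genes and 39.6% of array genes, TATAAA in 14.0% and 13.1%, and GCATGCGC, part of the NRF1 site, in 2.33% and 3.67%. Among genes with a kept probe the shares were 50.0% of splicing factor genes and 41.3% of all for CCAAT, 16.7% and 8.54% for TATAAA, and 2.78% and 5.22% for GCATGCGC. Such a match describes letters in a window and not a bound site. Shown are 120 bases before the start of 2 genes that rose (Srsf5 and Sf3a3), 2 on the lower side (Snrpc and Sf3b6) and Snrpn. Snrpn is described below with the differences between lines, and its most downstream listed start was taken. CCGGAA or its reverse complement is in capitals.
Srsf5, chr12:80945379-80945498, plus strand: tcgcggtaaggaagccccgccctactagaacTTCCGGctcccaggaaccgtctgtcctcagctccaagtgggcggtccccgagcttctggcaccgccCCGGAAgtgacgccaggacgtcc
Sf3a3, chr4:124714741-124714860, plus strand: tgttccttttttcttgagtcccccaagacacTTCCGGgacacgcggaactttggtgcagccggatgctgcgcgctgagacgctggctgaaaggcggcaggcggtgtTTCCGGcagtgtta
Snrpc, chr17:27839967-27840086, plus strand: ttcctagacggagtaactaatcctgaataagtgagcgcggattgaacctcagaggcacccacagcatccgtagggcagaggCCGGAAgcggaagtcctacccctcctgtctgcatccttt
Sf3b6, chr12:4817488-4817607, plus strand: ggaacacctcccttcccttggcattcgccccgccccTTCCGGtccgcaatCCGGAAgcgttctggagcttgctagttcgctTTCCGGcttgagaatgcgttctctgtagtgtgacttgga
Snrpn, chr7:60005200-60005319, minus strand, 1 of 4 listed starts: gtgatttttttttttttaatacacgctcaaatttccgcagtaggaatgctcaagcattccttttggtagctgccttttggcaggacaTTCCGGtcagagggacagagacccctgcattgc

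Genes with several probes allowed a second reading of each difference. Of the 42 genes with a kept probe, 21 had more than 1, which gave 29 pairs of a probe with the brightest probe of its gene. The gap between the 2 probes of a pair was itself tested between polysomal and total RNA. It was called in 16 of 29 pairs, beside 38.6% of all 3262 such pairs on the array. In 14 of the 16 the dimmer probe read the smaller or more negative difference, and in 2 it read the larger. The differences of both probes had the same sign in 26 of 29 pairs. Neither split was counted over all 3262 pairs, and differences of dim probes are compressed near the floor. Where both probes were at least 1 log2 above the array median in all 4 groups, 4 of 8 pairs were called, beside 30.1% of such pairs on the array. Those 4 were both Hnrnpm pairs, where the dimmer probe read the larger difference, and 1 pair each of Snrpa and Snrpb, where it read the more negative one.

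The largest called gaps were those of dim probes of Hnrnph1 (-2.56 and -2.15), Hnrnpa2b1 (-1.93) and Snrpa1 (-1.76), whose total values lay near the floor. The dim Snrpa1 probe was near the floor in polysomal RNA too, at 7.71 to 7.84. Its gap therefore mostly mirrors the difference of the brightest Snrpa1 probe. A dim Hnrnpk probe had a called gap of -1.69. Luc7l3 had gaps of -1.70 and -1.60, with a lowest group mean of 8.73, just under the brightness minimum used above. In polysomal RNA its brightest probe stood above the other 2 probes by 1.40 to 1.60 on the KI arrays and by 1.06 to 1.63 on the WT arrays. In total RNA the same gap was -0.51 to 0.10 on the KI arrays and -0.36 to -0.08 on the WT arrays. The differences between polysomal and total RNA were 3.39 ± 0.15, 1.79 ± 0.23 and 1.69 ± 0.21 at the 3 probes, and both gaps were called (adjusted p = 0.000816 and 0.000401). On replicate 1 of KI total RNA all 3 probes read within 1 log2 of the array median. Hnrnpm went the other way. Its brightest probe stood 1.05 to 1.41 above the other 2 on polysomal arrays and 1.52 to 2.07 on total arrays, so the dimmer probes read the larger difference (adjusted p = 0.00823 and 0.00498).

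Hnrnph1 had 5 kept probes, with differences of 3.14, 2.99, 2.43, 0.99 and 0.58 log2 from the brightest to the dimmest, and all 5 rose. The last 2 read between 7.73 and 8.0 on the 4 total arrays, so that their differences are bounded by the floor. In contrast, the 2 Srsf1 probes differed by 0.60 to 0.75 on all 8 arrays and the 2 Srsf3 probes by -0.02 to 0.11. Neither of these pairs was called. Where on the transcript the probes lie, and whether any binds a paralog, was not tested.

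**Figure D3:**
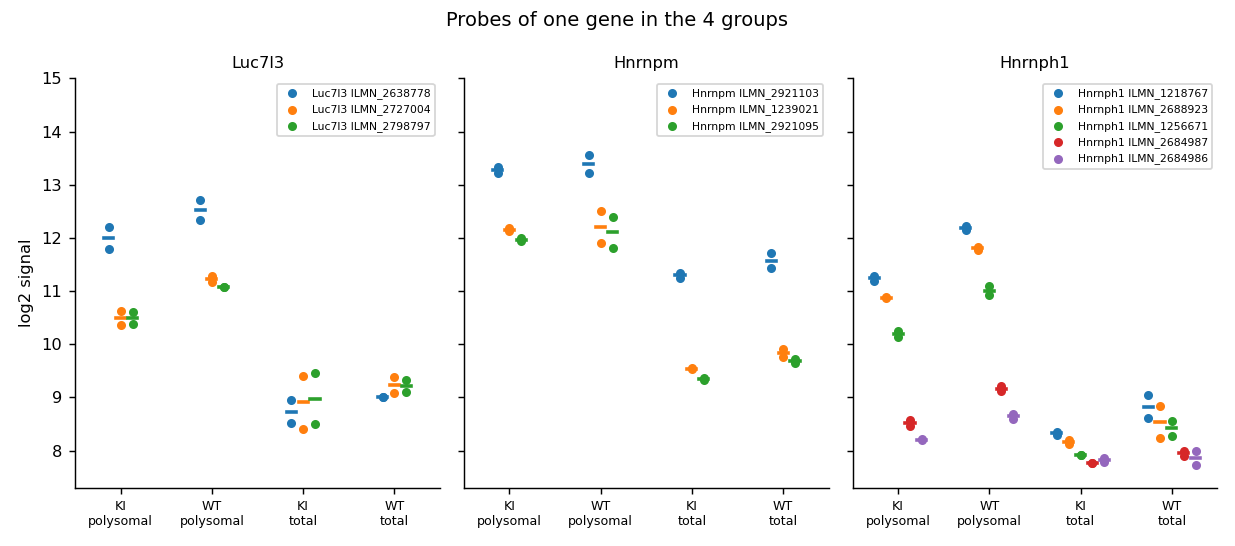
Log2 signal (y axis) of each kept probe of Luc7l3, Hnrnpm and Hnrnph1 on the 8 arrays, with bars at the means of 2 arrays. The 3 Luc7l3 probes read within 0.51 of the brightest in total RNA and separate by 1.06 to 1.63 in polysomal RNA, and the Hnrnph1 probes converge towards 8 in total RNA.

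The second comparison set KI against WT. In total RNA 0 of 71 splicing factor probes were called with limma, beside 0.0413% of all kept probes. At an unadjusted p below 0.05 there were 15 splicing factor probes, 3 higher and 12 lower in KI, where all kept probes gave 8.61%, of which 4.27% were higher and 4.34% lower. In polysomal RNA 0 of 71 were called with limma, again beside 0.0413%, and 16 had an unadjusted p below 0.05, 1 higher and 15 lower in KI, where all kept probes gave 11.2%, of which 5.56% were higher and 5.61% lower. These counts are of probes, and some genes have several. By the brightest probe, 8 of 42 genes had an unadjusted limma p below 0.05 in polysomal RNA, beside 11.8% of all kept genes. In total RNA there were 10 of 42, beside 9.41%. Of the 71 probes, 58 had a lower mean in KI polysomal than in WT polysomal RNA, beside 54.6% of all kept probes. In 39 of 71 both KI polysomal arrays lay below both WT polysomal arrays, beside 29% of all kept probes. In total RNA 47 of 71 had a lower mean in KI, beside 60.4% of all kept probes, and 27 were lower without overlap, beside 19%. The median difference in polysomal RNA was -0.12 log2, against -0.01 for all kept probes, and in total RNA it was -0.10, against -0.04. By experiment the polysomal median was -0.16 for replicate 1 and -0.21 for replicate 2. The polysomal medians by family were -0.59 for Luc7l, -0.26 for SR, -0.12 for hnRNP and SF3, -0.05 for Sm core and -0.03 for other Snrp probes.

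**Figure D4:**
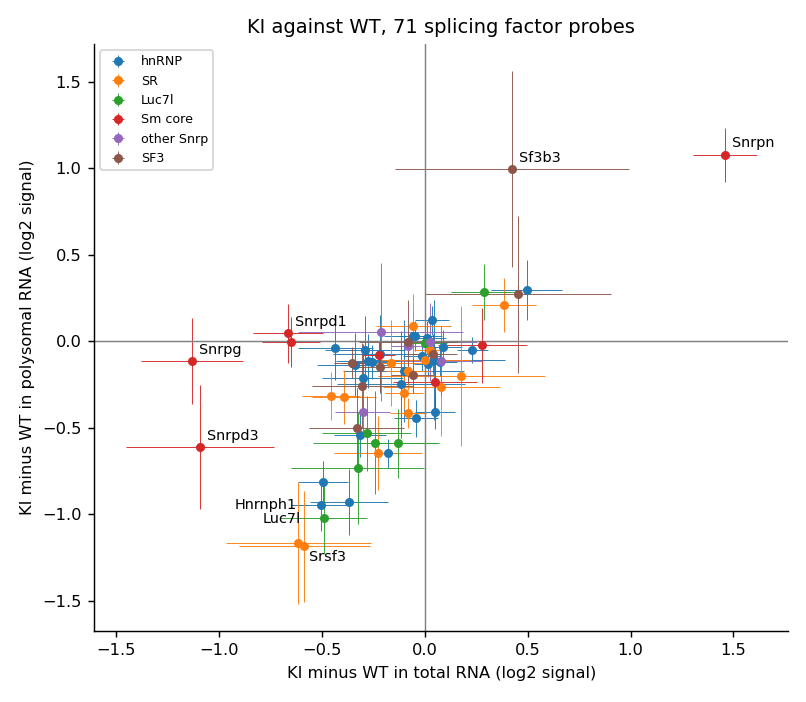
KI minus WT difference of the 71 kept splicing factor probes in total RNA (x axis) and polysomal RNA (y axis), both in log2 signal, with limma standard errors as bars and families in colour. Snrpn lies highest on both axes, while Hnrnph1, Luc7l and Srsf3 lie below 0 on both. No point passed an adjusted p of 0.05 on either axis.

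Snrpn was the 1 probe higher in KI polysomal RNA at an unadjusted p below 0.05. The gene encodes SmN, which takes the place of B in neurons, and is expressed from the paternal allele only. Its kept probe read 8.92 and 8.63 in KI polysomal RNA against 7.72 and 7.67 in WT polysomal RNA, and 9.38 and 9.14 in KI total RNA against 7.95 and 7.66 in WT total RNA. All KI arrays were above all WT arrays, and the WT arrays were at or near the floor. The differences were 1.46 ± 0.16 in total RNA (adjusted p = 0.0668) and 1.08 ± 0.16 in polysomal RNA (adjusted p = 0.123). The WT polysomal mean of 7.69 was below the 7.73 filter and the WT total mean was 7.80, so the sizes of these differences are bounded by the floor and are lower limits. With the replicate number as a block, the total RNA difference passed (adjusted p = 0.0353), and with an intensity trend both did (adjusted p = 0.0109 in total and 0.0351 in polysomal RNA). A second Snrpn probe stayed between 7.66 and 7.71 on all 8 arrays. Neural markers, 4 of 5 kept with Gfap at the floor, summed to 40.8 to 42.5 on KI arrays and 40.3 to 41.2 on WT arrays, and their part in the Snrpn difference was not tested.

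Hnrnph1 was lower in KI polysomal RNA at each of its 5 kept probes. The brightest read 11.29 and 11.19 in KI against 12.15 and 12.23 in WT, and the arrays did not overlap at any of the 5. The 4 brighter probes gave differences between -0.95 ± 0.15 and -0.65 ± 0.08 (adjusted p = 0.1 to 0.184), and the dimmest gave -0.45, so none was called. Leaving out replicate 1 or replicate 2 of WT total RNA leaves 1 array in that group. For the polysomal differences both are the same fit, in which only the shared spread changes. The differences of the 2 brightest Hnrnph1 probes stayed at -0.95 and -0.93. In total RNA the brightest probe read 8.36 and 8.29 in KI against 9.04 and 8.61 in WT, a difference of -0.50 ± 0.15 (adjusted p = 0.424).

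Luc7l read 9.61 and 10.23 in KI polysomal RNA against 10.89 and 10.98 in WT polysomal RNA, a difference of -1.02 ± 0.21 (adjusted p = 0.186) with no overlap. Luc7l2 lay on the other side, with 9.04 and 9.01 in KI polysomal RNA against 8.70 and 8.78 in WT polysomal RNA, and 8.45 and 7.95 in KI total RNA against 7.92 and 7.90 in WT total RNA. At this brightest Luc7l2 probe both KI arrays were above both WT arrays in each kind of RNA. Of the 12094 kept probes, 2795 were higher without overlap in polysomal RNA and 1514 in total RNA. The Luc7l2 differences were 0.28 ± 0.16 in polysomal and 0.29 ± 0.16 in total RNA. The second kept Luc7l2 probe gave -0.01 ± 0.10 and 0.00 ± 0.10, and its KI and WT arrays overlapped in each. Srsf3 read 8.58 and 9.18 in KI polysomal RNA against 10.07 and 10.03 in WT polysomal RNA, -1.17 ± 0.35 (adjusted p = 0.308). In KI total RNA Srsf3 had 7.67 and 8.70 against 8.80 and 8.80 in WT total RNA, so replicate 1 of KI total RNA alone was far lower. Srsf6 differed by -0.65 ± 0.21 (adjusted p = 0.347) in polysomal RNA and Srsf10 by -0.41 ± 0.09 (adjusted p = 0.186). At Luc7l, Srsf3, Srsf6 and Srsf10 the KI and WT polysomal arrays did not overlap, yet none passed the adjustment over all probes.

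**Figure D5:**
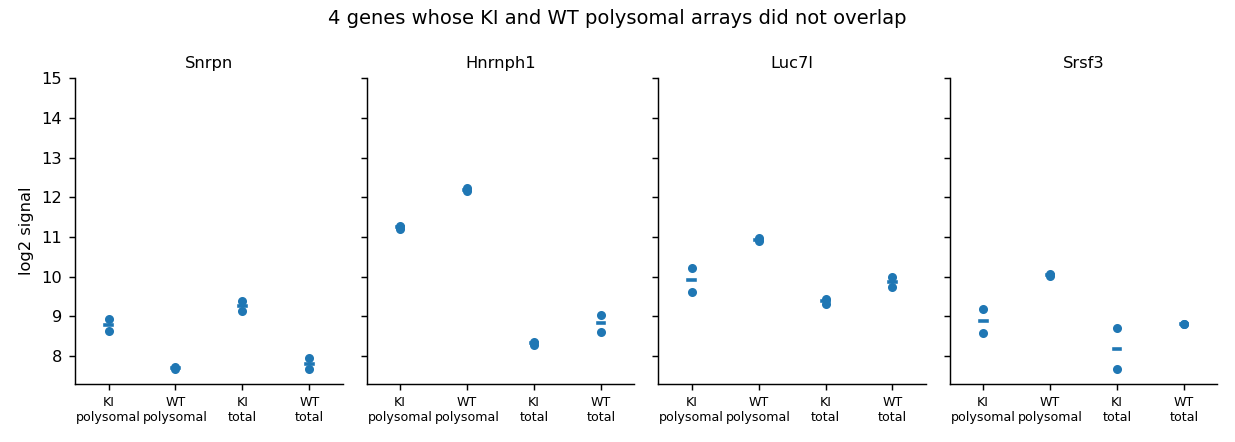
Log2 signal (y axis) of the brightest probe of Snrpn, Hnrnph1, Luc7l and Srsf3 on the 8 arrays, with bars at the means of 2 arrays. Snrpn is higher in KI in both kinds of RNA, and the other genes have both KI polysomal arrays below both WT polysomal arrays.

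Sm core probes made up 5 of the 12 lower ones in total RNA. Snrpg read 10.73 and 10.54 in KI total RNA against 12.07 and 11.47 in WT total RNA, a difference of -1.13 ± 0.25 (adjusted p = 0.317). In polysomal RNA it gave 9.42 and 9.52 in KI against 9.33 and 9.85 in WT, which overlap. Snrpd3 gave -1.10 ± 0.36 in total RNA (adjusted p = 0.477), with 10.90 and 10.81 in KI and 12.52 and 11.38 in WT. The Snrpd1 probes gave -0.67 ± 0.17 and -0.65 ± 0.14 in total RNA (adjusted p = 0.363 and 0.316) and 0.05 ± 0.17 and -0.00 ± 0.14 in polysomal RNA. In total RNA both KI arrays of these 3 genes lay below both WT arrays, as did 19% of all kept probes. Snrpd2 gave -0.22 ± 0.08 (adjusted p = 0.512). Hnrnpl was on the other side in total RNA, at 0.49 ± 0.17 (adjusted p = 0.512), with 12.90 and 12.69 in KI against 12.29 and 12.32 in WT.

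The third comparison was the interaction, the polysomal minus total difference in KI less that in WT. With limma 0 of 71 splicing factor probes were called, beside 0% of all kept probes, and every adjusted p was 1. At an unadjusted p below 0.05 there were 8 splicing factor probes, 3 higher and 5 lower, where all kept probes gave 2.32%, of which 1.27% were higher and 1.06% lower. The 3 higher ones were Snrpg, at 1.02 ± 0.35, and both Snrpd1 probes, at 0.71 ± 0.24 and 0.65 ± 0.20. The 5 lower ones were 2 dim Hnrnph1 probes, Hnrnpdl, Hnrnpk and Srsf10, between -0.47 and -0.28. Probe gaps between KI and WT were called in 0 of 29 pairs in either kind of RNA, beside 0% of all pairs, with 3 pairs in total and 2 in polysomal RNA at an unadjusted p below 0.05, beside 6.59% and 7.66% of all pairs.

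Other spliceosome genes, represented by their brightest probe, were set beside these families in polysomal against total RNA, where 29.7% of all kept genes were called higher and 24.1% lower. LSM proteins, which form rings like the Sm proteins, had 1 of 7 genes higher and 5 lower. Lsm5 fell by 2.20 ± 0.14 on the log2 scale (adjusted p = 0.000274), with 9.21 and 8.86 in KI polysomal RNA and 9.0 and 9.08 in WT polysomal RNA against 10.88 and 11.19 in KI total RNA and 11.24 and 11.65 in WT total RNA. Factors that assemble Sm rings had 8 of 13 higher and 1 lower, and that one, Gemin7, fell by 2.41 ± 0.09 on the log2 scale (adjusted p = 0.000102). SR-related proteins, exon junction proteins and SR kinases had 7 of 14 higher and 3 lower, led by Tra2a, an SR-like activator, at 2.59 ± 0.11 (adjusted p = 0.000119). The tri-snRNP and spliceosome core had 13 of 32 higher and 4 lower, factors at the 3′ splice site and U2 had 5 of 11 higher and 2 lower, and other splicing regulators had 11 of 21 higher and 2 lower. Mbnl1, a muscleblind regulator, was among the last, at 2.50 ± 0.24 (adjusted p = 0.000692). Dhx15, called higher at 1.92 ± 0.29, is in both the spliceosome core and the U2 lists and was counted in each. Between KI and WT, 0 genes of these lists were called in either kind of RNA (limma). Among all kept genes 0.0113% were higher and 0.034% lower in total RNA, and 0.0226% and 0.034% in polysomal RNA. At an unadjusted p below 0.05 there were 9 genes of the lists in total RNA, beside 9.41% of all kept genes, and 12 in polysomal RNA, beside 11.8%.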

How the data were processed

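The authors deposited log2 signals for 8 Illumina bead arrays, processed with the R package lumi per the submitters' processing notes. The log2 scale is inferred from values between 7.48 and 15.8. The version, log base and normalization were not given in the sources used here. A second deposited table held 8 columns equal to these values within 1e-06, under names that match no label, and these 8 columns were not used. The small number of arrays limits the precision. Since 1 line of each genotype was used, p-values reflect only how far its experiments vary.

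Probes were named from the platform annotation, which gave 1 gene symbol for 23978 of 25697. A model of the 4 groups without a block was fitted with limma 3.58.1 (R 4.3.3), with 4 residual and 1.81 prior degrees of freedom. Two-sided p-values were adjusted over the 12094 probes tested. Gaps between probes of one gene were fitted in the same way over 3262 pairs. Both fits were tested on simulated data.

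The members and lists were chosen with earlier results of these data known. Any splicing factor probe could be named. Tests were printed for called probes and pairs, for the 5 smallest p-values of a family in a comparison, for the brightest probe of a family, and for up to 3 genes of each other list.

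Total and polysomal RNA of one line and number share a source name. Deviations of such arrays from their group means had a correlation of 0.56 for KI and 0.04 for WT. Between KI and WT only the number is shared, and the correlation was 0.39 in total and 0.23 in polysomal RNA. Alternatives were other filters, 1 probe a gene, quantile or median scaling, only the groups compared, replicate or culture blocks, an intensity trend and leaving out arrays.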

Additional observations from a re-analysis of the deposited data

Results flagged for a closer look

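For 4 of the 71 kept probes the KI minus WT difference ran in opposite directions in the 2 kinds of RNA in both experiments. In 2 of them, probes of Hnrnpdl and Hnrnpk, the interaction had an unadjusted p below 0.05. The other 2 were the dim Hnrnpa2b1 probe, with -0.19 and -0.05 in polysomal RNA and 0.03 and 0.12 in total RNA, and the brightest Snrpa1 probe, with 0.02 and 0.08 in polysomal RNA and -0.25 and -0.18 in total RNA. For Hnrnpdl, a relative of Hnrnpd, the brightest probe gave -0.57 and -0.26 in polysomal RNA and 0.09 and 0.01 in total RNA, so that the polysomal difference less the total one was -0.461. The second Hnrnpdl probe gave -0.17 ± 0.29 in polysomal and -0.10 ± 0.29 in total RNA. For Hnrnpk the second probe, which read between 7.92 and 8.21, gave -0.02 and -0.09 in polysomal RNA and 0.17 and 0.29 in total RNA, so that the same quantity was -0.281. The brightest Hnrnpk probe gave -0.25 ± 0.31 in polysomal and -0.11 ± 0.31 in total RNA. For Hnrnpdl and Hnrnpk neither interaction was called (limma, unadjusted p = 0.0154 for Hnrnpdl and 0.0404 for Hnrnpk, adjusted p = 1 each). In polysomal minus total RNA, 2 of the 71 kept probes (Hnrnph3 and the same Hnrnpk probe) ran in opposite directions in KI and WT. How many of all 12094 kept probes ran in opposite directions was not counted, so neither count sets these genes apart. Groups of 2 arrays were not checked for outlying arrays.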

How the results depend on the processing

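Of the splicing factor probe counts, those of polysomal against total RNA moved most with the probes used. With 1 probe a gene 24 were called in KI (40 with all probes), 27 in WT (43) and 30 over both lines (50), which is a smaller number tested (42 against 71), and all 24, 27 and 30 were calls of the fit with all probes. Leaving out 1 array gave 27 to 41 in KI, 28 to 45 in WT and 43 to 51 over both lines. For KI against WT the counts of 0 became 1 in total RNA with the replicate block or an intensity trend and 1 in polysomal RNA with the trend (Snrpn each time). Leaving out 1 array gave 0 in total RNA and 0 to 2 in polysomal RNA. The interaction stayed at 0 under each setting. The count of 16 probe pairs over both lines became 4 of 9 when only probes at least 1 log2 above the median in every group were paired, a setting chosen after seeing the data, and 12 to 18 with 1 array left out. The replicate block, with pairing by number or by culture, changed no other count by over 1.5 times. KI total replicate 1 and WT total replicate 2 were also left out together, chosen after seeing the data. No called probe's difference changed sign. The same held for the 5 smallest p-values of each family and comparison, where these were below 0.05 unadjusted. Other probes with an unadjusted p below 0.05 were not followed. Quantile scaling gave 3262 higher and 3180 lower of all probes over both lines, against 3529 and 2954 as deposited. Signal over the floor limits the dim probes, and 2 arrays a group limit all of them.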
